A study of Mus musculus with 5 samples.

Results

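The genes described here are 42 genes of the lysosome: 9 proteases, 11 genes of glycan breakdown (10 glycosidases and the sulfatase Ids), 6 lipid hydrolases, phosphatases and activator proteins, 5 membrane proteins, 6 subunits of the vacuolar proton pump, 3 transcription factors of the MiT/TFE family, and the pair Grn and Gpnmb. They were taken by symbol from a table of 21878 genes measured by RNA-seq in bone marrow-derived macrophages (BMDMs) exposed to LPS, a bacterial cell wall component that activates macrophages. All 42 were found, and all 42 were among the 10893 genes tested, which had at least 1 FPKM in at least 2 of the 5 samples. FPKM, the deposited unit, counts the fragments of a gene in proportion to the length of its transcript and to the fragments sequenced in the sample. The 3 Kdm6a-deficient samples (replicates 1, 2 and 3) came from Kdm6aF/Y;Lyz2-Cre mice, in which Cre recombinase from the Lyz2 locus removes the floxed part of Kdm6a in myeloid cells, and the 2 wild-type samples (replicates 1 and 3) came from Kdm6aF/Y mice, which carry the floxed allele without Cre. Kdm6a encodes a demethylase of lysine on histone H3. Both groups carry the floxed allele and both received LPS, so the comparison is of genotypes under LPS, not of LPS with no LPS. The mice are males, as the single X-linked allele in the labels shows. No source says that the samples of a group came from separate mice, and the study's methods speak of pooled RNA, so the p-values measure the spread between these samples only, which may be technical.

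Lysosomes are acidic organelles in which macrophages break down proteins, glycans, lipids and ingested material. The vacuolar proton pump (V-ATPase) moves protons into the lumen by hydrolysing ATP, and cathepsins and other hydrolases work in the acid it makes. Many genes of these enzymes and of the pump are turned on by TFEB, TFE3 and MITF, which bind the palindrome CACGTG, often written with flanking bases as the CLEAR element. In macrophages lysosomal proteases also cut antigens and Toll-like receptors.

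FPKM carry no read totals, so the depth of each sample is unknown here. The summed FPKM of a sample ranged from 388394 to 433289 in Kdm6a-deficient samples and from 400030 to 410206 in wild-type samples. Kdm6a itself was at 2.81, 1.77 and 2.44 FPKM in Kdm6a-deficient samples and at 3.72 and 2.91 FPKM in wild-type samples. The labelled genotypes did not overlap, but the fold change (log2, -0.38, standard error 0.15) did not pass the threshold (adjusted p = 0.268), and the floxed exons cannot be told from the other exons in a single value for the gene. Markers of macrophages were present in every sample, with the 6 listed genes summing to 1898 to 1963 FPKM in Kdm6a-deficient samples and 1738 to 1779.8 FPKM in wild-type samples. The 10 stromal markers were present as well and summed to 2318 to 2335 FPKM in Kdm6a-deficient samples and 3031 to 3218 FPKM in wild-type samples. Of the 9 tested, 4 were lower past the threshold, among them Dcn, Lum and Col1a2, and Cxcl12 was higher, against 2.18% of all tested genes lower and 1.73% higher. The abundant Col3a1 and Postn overlapped between genotypes, with means of 398 and 183 FPKM in Kdm6a-deficient samples and 409 and 161 FPKM in wild-type samples. The 5 endothelial markers, of which Cdh5 was lower past the threshold, summed to 10.4 to 12.2 FPKM in Kdm6a-deficient samples and 19.4 to 19.6 FPKM in wild-type samples. The part of such cells in the results below was not tested, and in bulk samples fewer cells of a type and less RNA per cell cannot be told apart.

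The lysosomal genes were expressed at high levels in both genotypes. Together they made up 2.88, 2.81 and 2.87% of all FPKM in Kdm6a-deficient samples and 2.73 and 2.79% in wild-type samples. Their summed FPKM overlapped, at 11199, 12185 and 11453 in Kdm6a-deficient samples and 10936 and 11431 in wild-type samples. The shares also depend on the abundant Lyz2 within all FPKM, at 8260, 9119 and 9127 in Kdm6a-deficient samples and 18563 and 19359 in wild-type samples. Mean levels reached 100 FPKM in 19 of the 42 genes and 1000 FPKM in 4, and stayed below 10 FPKM in 4. The 4 above 1000 FPKM were Ctsd, Psap, Ctss and Ctsb, and 7 of the 42 were among the 100 most abundant genes of the table. The authors' mean count per gene, normalised for library size, ran between 345 for Tfeb and 113018 for Ctsd, with a median of 5750.3.

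**Figure D1:**
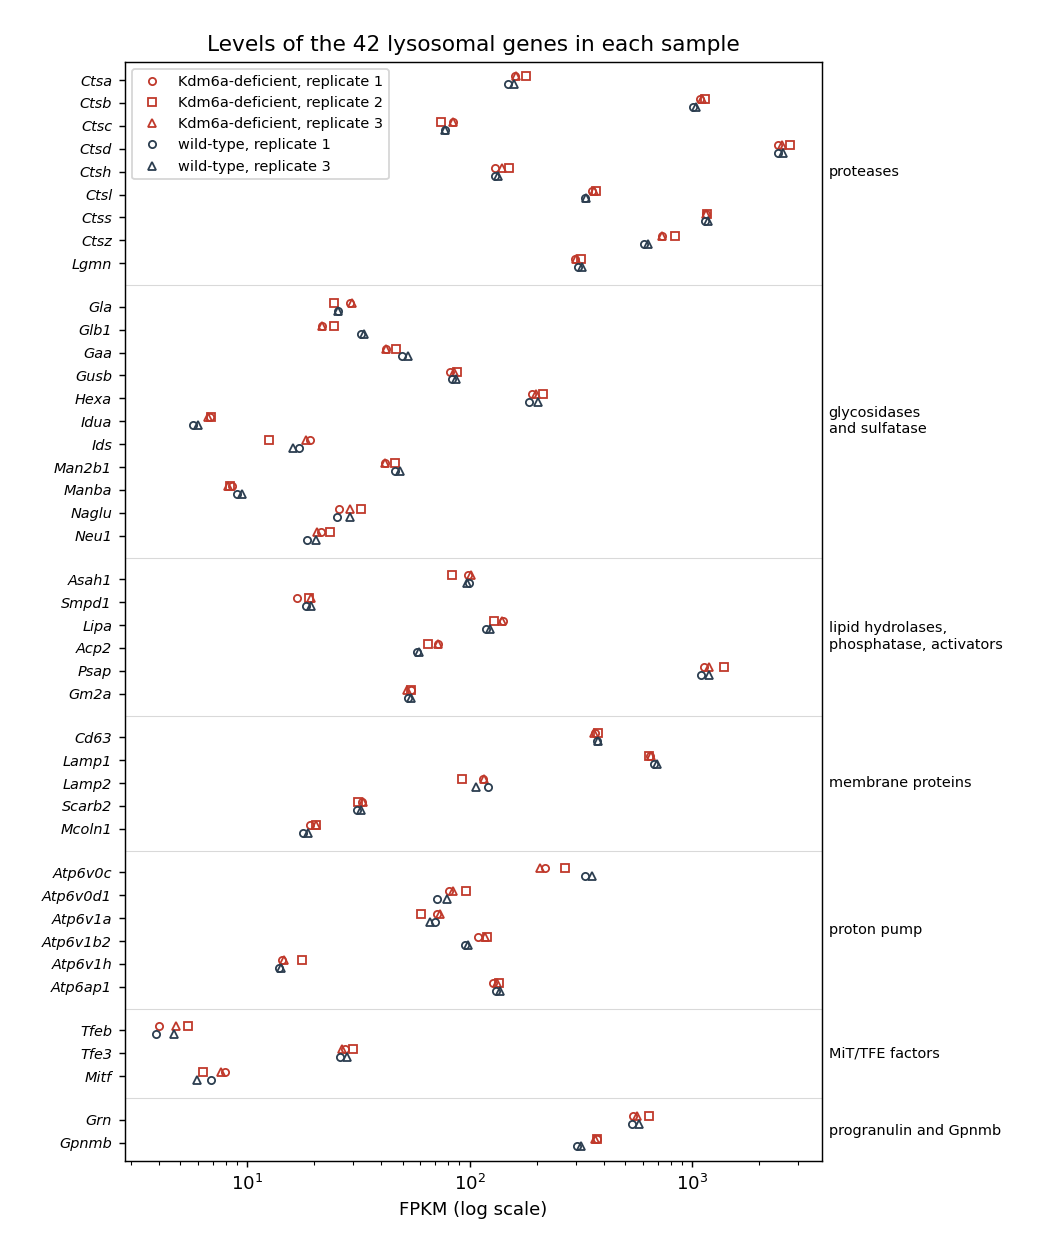
FPKM (log scale) of each of the 42 lysosomal genes in each sample, with Kdm6a-deficient samples in red above wild-type samples in dark blue, and replicates 1, 2 and 3 as circle, square and triangle. Levels run between 3.91 FPKM (Tfeb, wild-type replicate 1) and 2754 FPKM (Ctsd, Kdm6a-deficient replicate 2), and for most genes the genotypes differ by less than the genes differ from each other.

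With Kdm6a deficiency, 0 of the 42 genes were higher and 2 were lower past the threshold (adjusted p under 0.05, limma, Benjamini-Hochberg over all tested genes). The lower genes were Glb1 and Atp6v0c. The 2 calls are 4.76% of the genes, while 3.91% of all tested genes passed in either direction, 2.18% being lower and 1.73% higher. At an unadjusted p under 0.05 there were 8 genes, Ctsz, Gpnmb, Acp2, Atp6v1b2, Lipa, Gaa, Glb1 and Atp6v0c, against 17.3% of all tested genes. The genotypes did not overlap for 18 of the 42 genes, 13 higher and 5 lower in Kdm6a-deficient samples, against 35.9% of all tested genes (16.7% higher, 19.2% lower). The median log2 fold change was 0.05 for the 42 genes and 0.00 for all tested genes. The 95% interval of the log2 fold change lay within 0.5 either way for 39 of the 42 genes, the exceptions being Glb1, Atp6v0c and Ctsz. An exact two-sided permutation test of 3 against 2 samples cannot go below p = 0.1, so none is given for single genes.

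**Figure D2:**
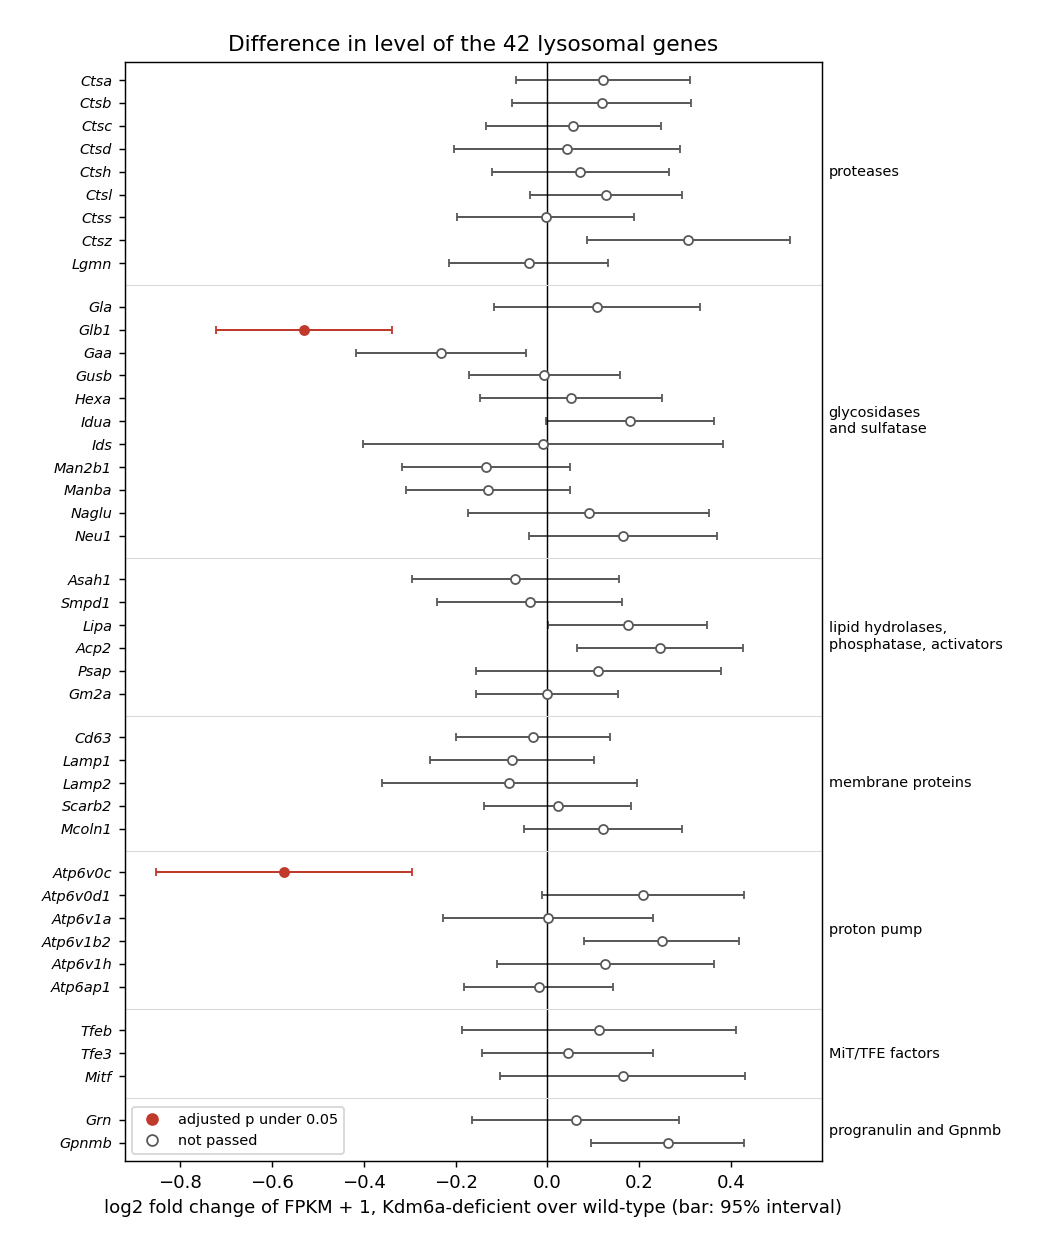
Log2 fold change of FPKM + 1, Kdm6a-deficient over wild-type, of each of the 42 lysosomal genes with its 95% interval from limma, grouped by role. The filled red points, Glb1 at -0.53 and Atp6v0c at -0.57, passed the threshold, and 39 intervals lie within 0.5 of 0.

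Glb1 (GeneID 12091), the lysosomal beta-galactosidase that trims galactose from GM1 ganglioside and keratan sulfate, fell. It was at 21.7, 24.6 and 21.7 FPKM in Kdm6a-deficient samples and at 32.6 and 33.7 FPKM in wild-type samples. All Kdm6a-deficient samples lay well below both wild-type samples, and the gap between the groups exceeded the spread within either. The mean was 22.7 ± 1.67 FPKM in Kdm6a-deficient samples (SD, n = 3) and 33.1 ± 0.747 FPKM in wild-type samples (SD, n = 2), a ratio of 0.684. The log2 fold change was -0.53 (standard error 0.08, 95% interval -0.72 to -0.34, adjusted p = 0.0157). It ran between -0.59 and -0.50 as each sample was left out. The adjusted p was then 0.00708 without Kdm6a-deficient replicate 2, but 0.0545 and 0.0957 without Kdm6a-deficient replicates 1 and 3, and 0.0674 and 0.149 without wild-type replicates 1 and 3. In the mouse build GRCm38 Glb1 lies at chr9:114401076-114474898 on the plus strand. Tmppe, annotated within it on the same strand, was at 6.03, 4.87 and 6.05 FPKM in Kdm6a-deficient samples and 5.41 and 5.86 FPKM in wild-type samples (95% interval of the log2 fold change -0.26 to 0.25).

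The 250 bases before the RefSeq start of Glb1 are shown because Glb1 is a called gene that carries a CACGTG there, at position -48 from the start site and with the CLEAR flank GTCACGTG. Lamp1 is shown beside it as the gene with the most copies among the 37 with a promoter window, 4 upstream of its start. Atp6v0c, the other called gene, has none upstream of any of its 3 RefSeq starts, and the window before the start farthest upstream is printed. Capitals mark CACGTG, all sequences read 5′ to 3′ on the gene's strand, and positions are those of GRCm38.p6 in RefSeq. The windows are chr9:114400828-114401077 (plus strand) for Glb1, chr8:13158911-13159160 (plus strand) for Lamp1 and chr17:24169679-24169928 (minus strand) for Atp6v0c.
Glb1: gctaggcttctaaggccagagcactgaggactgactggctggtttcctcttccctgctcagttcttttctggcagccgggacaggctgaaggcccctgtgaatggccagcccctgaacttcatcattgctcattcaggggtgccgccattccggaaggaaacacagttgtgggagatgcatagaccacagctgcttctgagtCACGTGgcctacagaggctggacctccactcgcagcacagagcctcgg
Lamp1: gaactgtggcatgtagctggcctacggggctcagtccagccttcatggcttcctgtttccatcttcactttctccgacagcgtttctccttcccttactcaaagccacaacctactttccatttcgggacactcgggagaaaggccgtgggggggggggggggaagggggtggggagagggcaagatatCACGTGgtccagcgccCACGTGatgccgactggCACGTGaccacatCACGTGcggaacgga
Atp6v0c: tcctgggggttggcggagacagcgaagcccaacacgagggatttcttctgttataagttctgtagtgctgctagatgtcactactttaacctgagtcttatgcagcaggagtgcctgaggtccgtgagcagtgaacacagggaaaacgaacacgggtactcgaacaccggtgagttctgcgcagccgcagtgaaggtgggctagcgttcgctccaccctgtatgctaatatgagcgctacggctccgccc
Shorter windows around the motif are given for Mcoln1 (chr8:3500428-3500473, plus strand, motif at -71) and Gla (chrX:134601174-134601219, minus strand, motif at -194), whose flank GTCACGTG is the same as in Glb1.
Mcoln1: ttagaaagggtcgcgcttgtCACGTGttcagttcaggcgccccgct
Gla: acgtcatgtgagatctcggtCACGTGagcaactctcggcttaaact

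Across the list, CACGTG was found on 12 of the 37 genes with a RefSeq promoter window (32.4%), against 8.09% of the 27025 genes of the promoter table. Windows ran from 250 bases before to 50 bases after each start, and both strands were searched. The longer GTCACGTG, which contains CACGTG and was searched on both strands, was found on 9 of the 37 (24.3%), against 2.55% of all genes. TCACGTGA, a palindrome that also contains CACGTG, was found on 6 (16.2%) against 1.12%. The 12 genes with CACGTG were Ctsa, Ctsd, Ctsl, Lgmn, Gla, Glb1, Gaa, Naglu, Lamp1, Mcoln1, Atp6v0d1 and Atp6v1a. Their log2 fold changes ran between -0.53 and 0.21 with a median of 0.07 and 8 above 0. The 25 genes without it ran between -0.57 and 0.31 with a median of 0.04 and 14 above 0. The motif was frequent near the starts of these genes. They were listed as lysosomal genes, whose known regulators bind it, and the comparison took all genes of the promoter table, expressed or not. The frequency is therefore no separate result of these samples. The genes that carry the motif spanned nearly the same range of fold changes as those that do not. A match of letters says nothing of binding.

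Beside Glb1, the glycosidases and the sulfatase gave no further call. Gaa, which releases glucose from glycogen, came nearest, at 41.9, 46.8 and 42.2 FPKM in Kdm6a-deficient samples and 49.8 and 53.0 FPKM in wild-type samples. All Kdm6a-deficient samples lay below both wild-type samples (log2 fold change -0.23, standard error 0.08, adjusted p = 0.193). Manba, a beta-mannosidase, was at 8.53, 8.38 and 8.23 FPKM in Kdm6a-deficient samples and at 8.99 and 9.52 FPKM in wild-type samples. Its groups did not overlap, but its adjusted p was 0.46. Man2b1, an alpha-mannosidase, was at 41.4, 46.2 and 41.7 FPKM in Kdm6a-deficient samples and 46.1 and 48.6 FPKM in wild-type samples, an overlap by Kdm6a-deficient replicate 2 alone. In the other direction, Idua, which removes iduronic acid from heparan and dermatan sulfate, was at 6.83, 6.85 and 6.66 FPKM in Kdm6a-deficient samples and at 5.73 and 6.01 FPKM in wild-type samples. Its log2 fold change was 0.18 (95% interval -0.0029 to 0.36, adjusted p = 0.299). Neu1, a sialidase, was at 21.4, 23.7 and 20.7 FPKM in Kdm6a-deficient samples and 18.5 and 20.4 FPKM in wild-type samples, so the gap between the groups was smaller than the spread within each (adjusted p = 0.398).

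The other glycosidases overlapped between genotypes. Hexa, the alpha subunit of beta-hexosaminidase, was the most abundant of them, at 191, 213 and 198 FPKM in Kdm6a-deficient samples and 184 and 203 FPKM in wild-type samples. Gusb, the beta-glucuronidase often used as a reference gene, was at 81.2, 88.0 and 84.9 FPKM in Kdm6a-deficient samples and 83.4 and 86.7 FPKM in wild-type samples, with a 95% interval of -0.17 to 0.16 for its log2 fold change. Gla, the alpha-galactosidase of globotriaosylceramide, averaged 27.7 ± 2.82 FPKM in Kdm6a-deficient samples (SD, n = 3) and 25.6 ± 0.131 FPKM in wild-type samples (SD, n = 2). Naglu, which acts on heparan sulfate, averaged 29.0 ± 3.35 FPKM in Kdm6a-deficient samples and 27.2 ± 2.75 FPKM in wild-type samples. Ids, the iduronate sulfatase, was at 19.1, 12.5 and 18.3 FPKM in Kdm6a-deficient samples and 17.0 and 16.0 FPKM in wild-type samples. Kdm6a-deficient replicate 2 stood apart from the other samples for Ids, and its standard error of 0.17 was the highest of the 42 genes. The 11 genes summed to 488, 528 and 501 FPKM in Kdm6a-deficient samples and 497 and 532 FPKM in wild-type samples, a ratio of means of 0.982.

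**Figure D3:**
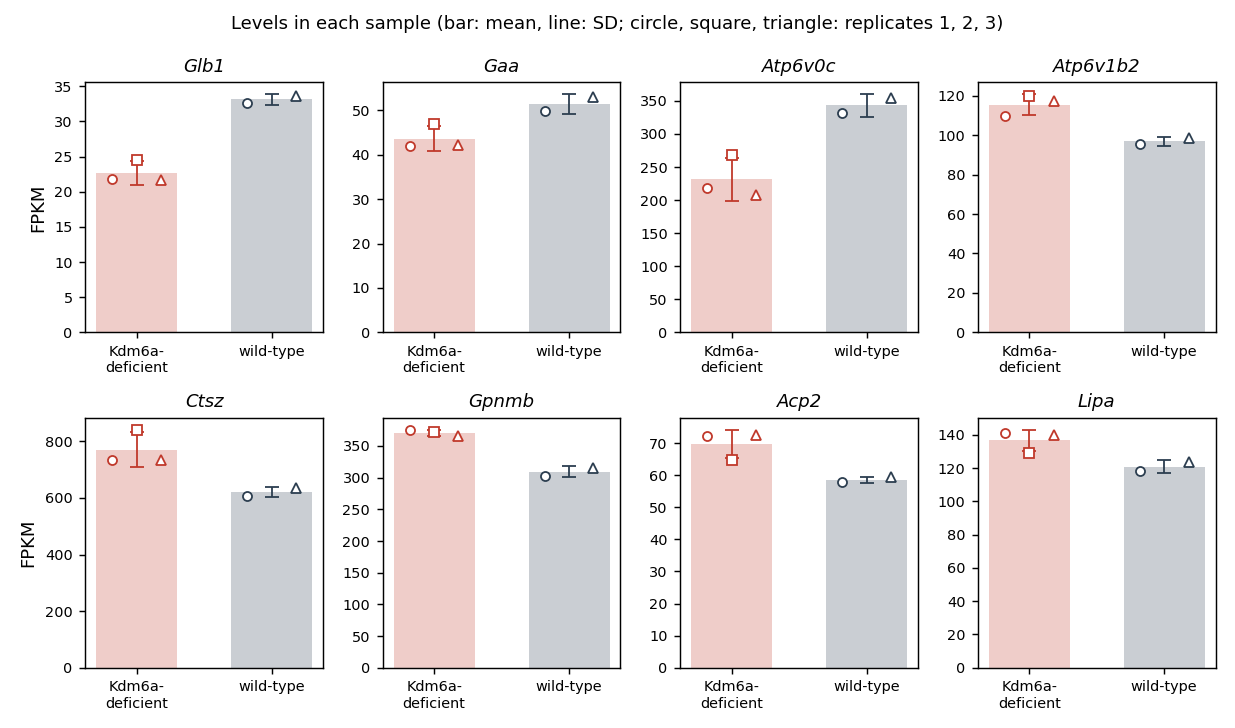
FPKM of the 8 lysosomal genes with an unadjusted p under 0.05 in each sample, Kdm6a-deficient at the left (red, n = 3) and wild-type at the right (dark blue, n = 2), with bars for the mean, lines for the SD and a circle, square or triangle for replicates 1, 2 and 3. Glb1, Gaa and Atp6v0c lie lower and Atp6v1b2, Ctsz, Gpnmb, Acp2 and Lipa higher in Kdm6a-deficient samples, and Glb1 and Atp6v0c passed the threshold.

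No protease of the list changed past the threshold. The largest difference was in Ctsz, cathepsin Z, a carboxypeptidase that myeloid cells also secrete. It was at 733, 841 and 735 FPKM in Kdm6a-deficient samples and 607 and 634 FPKM in wild-type samples. Every Kdm6a-deficient sample was above both wild-type samples, with replicate 2 highest (log2 fold change 0.31, standard error 0.09, adjusted p = 0.153). Ctsl, a cysteine endopeptidase, was at 356, 370.4 and 361 FPKM in Kdm6a-deficient samples and 329 and 334 FPKM in wild-type samples. Its groups did not overlap, and its log2 fold change of 0.13 had a 95% interval of -0.04 to 0.29. Ctsb, another cysteine protease, was at 1089, 1145 and 1103 FPKM in Kdm6a-deficient samples and 1010.0 and 1039 FPKM in wild-type samples, and Ctsa, the carboxypeptidase that protects Glb1 and Neu1 in a complex, at 160.3, 179.8 and 162 FPKM in Kdm6a-deficient samples and 149 and 158 FPKM in wild-type samples. Both were higher in all Kdm6a-deficient samples and neither passed (adjusted p = 0.546 for Ctsb and 0.522 for Ctsa).

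The other 5 proteases overlapped between genotypes. Ctsd, the aspartic protease cathepsin D, was at 2431, 2754 and 2544 FPKM in Kdm6a-deficient samples and 2435 and 2559 FPKM in wild-type samples, which made it the most abundant of the 42 genes. Ctss, which trims the invariant chain of MHC class II, was at 1152, 1173 and 1157 FPKM in Kdm6a-deficient samples and 1143 and 1184 FPKM in wild-type samples. The 95% interval of its log2 fold change was -0.20 to 0.19. Lgmn, an asparaginyl endopeptidase that processes other cathepsins, was at 298, 317 and 300.4 FPKM in Kdm6a-deficient samples and 307 and 321 FPKM in wild-type samples. Ctsc, which activates granule serine proteases, averaged 80.9 ± 5.92 FPKM in Kdm6a-deficient samples (SD, n = 3) and 77.6 ± 0.359 FPKM in wild-type samples (SD, n = 2). Ctsh, an aminopeptidase, averaged 139.8 ± 10.2 FPKM in Kdm6a-deficient samples and 133 ± 2.94 FPKM in wild-type samples. As a class, 7 of the 9 proteases had a log2 fold change above 0, against 5614 of the 10893 tested genes. The summed level was 6433, 7004 and 6586 FPKM in Kdm6a-deficient samples and 6189 and 6442 FPKM in wild-type samples, which overlap.

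Among the lipid hydrolases, the phosphatase and the activator proteins, Acp2 and Lipa were higher in every Kdm6a-deficient sample without passing the threshold. Acp2, the lysosomal acid phosphatase, was at 72.2, 64.7 and 72.4 FPKM in Kdm6a-deficient samples and 58.0 and 59.3 FPKM in wild-type samples. Kdm6a-deficient replicate 2 was the lowest of its group (log2 fold change 0.25, standard error 0.08, adjusted p = 0.159). Lipa, the acid lipase of cholesteryl esters and triglycerides, was at 141, 129 and 139.9 FPKM in Kdm6a-deficient samples and 118 and 124 FPKM in wild-type samples (log2 fold change 0.17, adjusted p = 0.283). Psap, the precursor of the saposins that present sphingolipids to hydrolases, was at 1137, 1392 and 1192 FPKM in Kdm6a-deficient samples and 1101 and 1189 FPKM in wild-type samples. Kdm6a-deficient replicate 2 stood above the other 4 samples, and the groups overlapped. Gm2a, the activator that presents GM2 ganglioside, was at 54.3, 54.2 and 52.1 FPKM in Kdm6a-deficient samples and 52.7 and 54.5 FPKM in wild-type samples, with a 95% interval of -0.15 to 0.15. Asah1, the acid ceramidase, was at 98.1, 83.2 and 101 FPKM in Kdm6a-deficient samples and 99.6 and 97.2 FPKM in wild-type samples. Smpd1, the acid sphingomyelinase, was at 16.8, 19.0 and 19.3 FPKM in Kdm6a-deficient samples and 18.3 and 19.5 FPKM in wild-type samples. The intervals of both lay within 0.30 of 0 on the log2 scale.

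The membrane proteins gave no call. Lamp1, the main glycoprotein of the lysosomal membrane, was at 645, 640.4 and 655 FPKM in Kdm6a-deficient samples and 671 and 694 FPKM in wild-type samples. The groups did not overlap, but the difference was small (log2 fold change -0.08, 95% interval -0.26 to 0.10, adjusted p = 0.69). Lamp2, its paralog that also serves chaperone-mediated autophagy, was at 115, 91.9 and 116 FPKM in Kdm6a-deficient samples and 120.3 and 107 FPKM in wild-type samples. Mcoln1, a channel that lets calcium out of the lysosome, was at 19.2, 20.5 and 20.5 FPKM in Kdm6a-deficient samples and 17.9 and 18.8 FPKM in wild-type samples. It was higher in all Kdm6a-deficient samples (adjusted p = 0.471). Cd63, a tetraspanin of late endosomes, was at 365, 376 and 361 FPKM in Kdm6a-deficient samples and 373 and 378 FPKM in wild-type samples. Scarb2, the receptor that carries glucocerebrosidase to the lysosome, averaged 32.4 ± 0.852 FPKM in Kdm6a-deficient samples and 31.9 ± 0.934 FPKM in wild-type samples. The 5 genes summed to 1177, 1161 and 1186 FPKM in Kdm6a-deficient samples and 1213 and 1231 FPKM in wild-type samples, a ratio of means of 0.961.

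The proton pump held the other called gene. Atp6v0c (GeneID 11984), the proteolipid that forms the rotating ring in the membrane part V0, fell. It was at 218, 269 and 208 FPKM in Kdm6a-deficient samples and 331 and 355 FPKM in wild-type samples. The groups did not overlap, but the gap between them was only about as wide as the spread within the Kdm6a-deficient samples. Kdm6a-deficient replicate 2 lay nearer to the wild-type samples than replicates 1 and 3. The mean was 232 ± 32.4 FPKM in Kdm6a-deficient samples (SD, n = 3) and 343 ± 16.9 FPKM in wild-type samples (SD, n = 2), a ratio of 0.675. The log2 fold change was -0.57 (standard error 0.12, 95% interval -0.85 to -0.30, adjusted p = 0.0462). The call was made narrowly: the adjusted p was 0.105 with no filter on low values and 0.0509 with a filter on all 5 samples. It was 0.00658 without Kdm6a-deficient replicate 2, but 0.119 and 0.19 without Kdm6a-deficient replicates 1 and 3, and 0.112 and 0.319 without wild-type replicates 1 and 3. The log2 fold change then ran between -0.68 and -0.50. In GRCm38 the gene lies at chr17:24163866-24169702 on the minus strand. Processed pseudogenes of Atp6v0c are known in the mouse, and how the counting shared reads among such copies is not given in the sources used here.

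None of the other 5 subunits of the list was lower in all Kdm6a-deficient samples. Atp6v1b2, the B subunit of the catalytic part V1, was at 109.6, 119.7 and 117 FPKM in Kdm6a-deficient samples and 95.3 and 98.6 FPKM in wild-type samples. All Kdm6a-deficient samples were above both wild-type samples (log2 fold change 0.25, standard error 0.07, adjusted p = 0.13). Atp6v0d1, which joins V0 to the central stalk, was at 81.1, 96.2 and 84.6 FPKM in Kdm6a-deficient samples and 71.7 and 79.0 FPKM in wild-type samples (adjusted p = 0.318). Atp6v1h, a regulatory subunit, was at 14.4, 17.6 and 14.6 FPKM in Kdm6a-deficient samples and 14.0 and 14.3 FPKM in wild-type samples. The groups of these genes did not overlap, but for Atp6v1h the gap was small beside the spread. Atp6v1a, the A subunit that binds ATP, was at 71.2, 60.4 and 73.2 FPKM in Kdm6a-deficient samples and 69.9 and 66.1 FPKM in wild-type samples. Atp6ap1, an accessory protein of V0 assembly, was at 127, 136 and 133 FPKM in Kdm6a-deficient samples and 131 and 137 FPKM in wild-type samples. The last pair overlapped between genotypes. The 6 subunits summed to 622, 698 and 631 FPKM in Kdm6a-deficient samples and 713 and 749.9 FPKM in wild-type samples, a ratio of 0.889. Atp6v0c was the most abundant of them and weighs most in this sum. Of the 6, 4 had a log2 fold change above 0, against 5614 of the 10893 tested genes, so the ratio does not describe each subunit.

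A further list of pump subunits was set beside these. Of 12 that were tested, 1 rose and 0 fell (8.33%, against 3.91% of all tested genes in either direction). Atp6v0a1, an isoform of the a subunit of V0, rose: it was at 24.6, 23.2 and 24.0 FPKM in Kdm6a-deficient samples and 17.9 and 18.3 FPKM in wild-type samples (log2 fold change 0.39, standard error 0.07, adjusted p = 0.0284). Its groups were far apart beside their spread. The call was lost without Kdm6a-deficient replicates 1 and 3 (adjusted p = 0.0995 and 0.152) and without wild-type replicates 1 and 3 (0.146 and 0.221). Of the 12 subunits, 10 had a log2 fold change above 0, against 5614 of the 10893 tested genes, and their median was 0.17. Without overlap between the genotypes, 8 were higher, against 16.7% of all tested genes. Atp6v0d2, an isoform of the d subunit that osteoclasts and activated macrophages express, was at 18.8, 16.0 and 17.4 FPKM in Kdm6a-deficient samples and 13.3 and 10.8 FPKM in wild-type samples, just outside the threshold (log2 fold change 0.50, adjusted p = 0.0553), and was singled out after its values were seen. Over all 25 subunits in the table, tested or not, the summed level was 1780.0, 2016 and 1862 FPKM in Kdm6a-deficient samples and 1812 and 1878 FPKM in wild-type samples, which overlap.

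**Figure D4:**
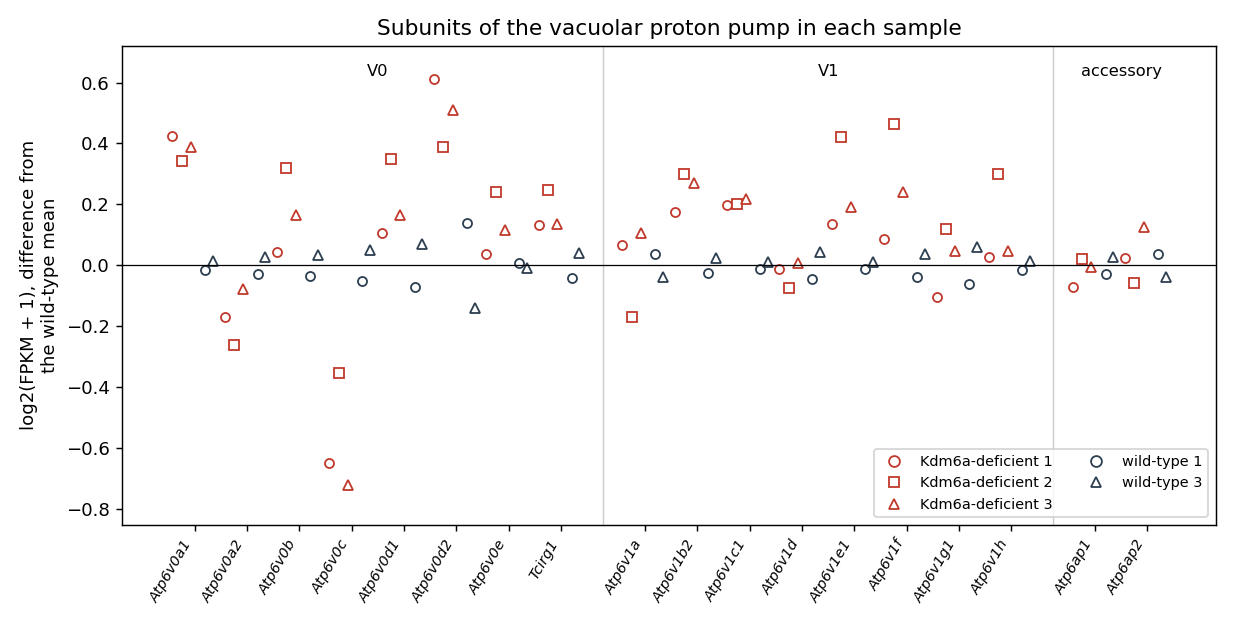
Difference of log2(FPKM + 1) from the wild-type mean for the 18 tested subunits of the vacuolar proton pump, Kdm6a-deficient samples in red at the left and wild-type samples in dark blue at the right of each gene, with replicates 1, 2 and 3 as circle, square and triangle, in the membrane part V0, the catalytic part V1 and the accessory proteins. Atp6v0c is below 0 in all 3 Kdm6a-deficient samples, least so in replicate 2. Of the 18 subunits, 14 have a log2 fold change above 0, against 5614 of the 10893 tested genes.

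The transcription factors that drive lysosomal genes overlapped between genotypes. Tfeb was at 4.02, 5.41 and 4.78 FPKM in Kdm6a-deficient samples and 3.91 and 4.68 FPKM in wild-type samples. Tfe3, the most abundant of the family here, was at 27.4, 29.9 and 26.7 FPKM in Kdm6a-deficient samples and 26.2 and 28.1 FPKM in wild-type samples. Mitf was at 7.94, 6.36 and 7.62 FPKM in Kdm6a-deficient samples and 6.88 and 5.92 FPKM in wild-type samples. Their log2 fold changes were 0.11 (95% interval -0.19 to 0.41), 0.04 (-0.14 to 0.23) and 0.16 (-0.10 to 0.43). These factors act largely by moving into the nucleus, which RNA levels do not show.

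Gpnmb, a glycoprotein of lysosomes and melanosomes and a known target of MITF, was at 375, 372 and 365 FPKM in Kdm6a-deficient samples and 303 and 315 FPKM in wild-type samples. Every Kdm6a-deficient sample was above both wild-type samples, and replicates lay close together, at 371 ± 4.91 FPKM in Kdm6a-deficient samples (SD, n = 3) and 309 ± 8.60 FPKM in wild-type samples (SD, n = 2). The log2 fold change of 0.26 (standard error 0.07, 95% interval 0.10 to 0.43) did not pass the threshold (adjusted p = 0.107). Grn, the precursor of progranulin, which is cut into granulins in the lysosome, was at 545, 637 and 568 FPKM in Kdm6a-deficient samples and 537 and 580.2 FPKM in wild-type samples. Its groups overlapped.

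The deviations among replicates were shared by many of the 42 genes. The difference of Kdm6a-deficient replicate 2 from the mean of replicates 1 and 3 ranged between -0.54 (Ids) and 0.33 (Atp6v0c) on the log2(FPKM + 1) scale. Across the 42 genes, as a description, it correlated with the difference of wild-type replicate 3 from replicate 1 (Pearson r = 0.794, n = 42 genes), and over all tested genes with a transcript less strongly (r = 0.413, n = 10564). It also correlated with the GC content of the longest annotated transcript (r = 0.679 over the 42 genes and 0.521 over these 10564 genes). With the log2 of the length of that transcript it correlated inversely (r = -0.373 over the 42 genes and -0.611 over these 10564 genes). Genes share these libraries and their base composition, so they are not independent points. With a trend against GC content removed within each sample, an alternative chosen after the data were seen, Ctsz, Acp2, Atp6v1b2 and Gpnmb had adjusted p of 0.0316, 0.0358, 0.037 and 0.0297 and were higher, and Gaa had 0.0411 and was lower. Glb1 and Atp6v0c kept their calls (adjusted p = 0.00518 and 0.0168). The calls over all genes then numbered 354 higher and 422 lower, against 188 and 238 in the fit reported here.

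**Figure D5:**
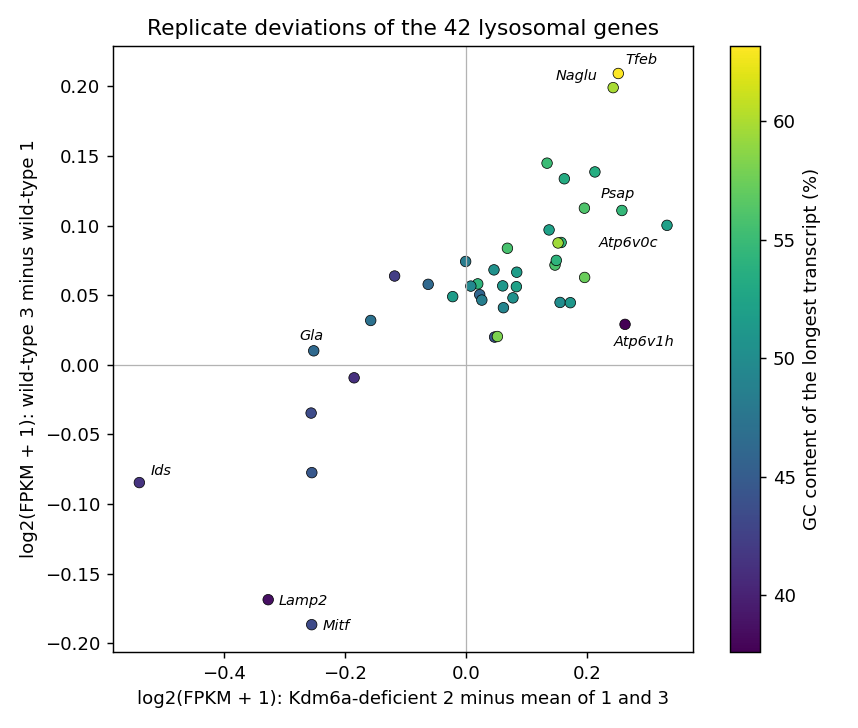
Difference of wild-type replicate 3 from replicate 1 against the difference of Kdm6a-deficient replicate 2 from the mean of replicates 1 and 3, both in log2(FPKM + 1), with 1 point for each of the 42 lysosomal genes coloured by the GC content of its longest transcript in percent. Ids, Lamp2 and Mitf, of low GC content, lie at the lower left and Tfeb and Naglu, of high GC content, at the upper right (r = 0.794). Atp6v1h is off the trend.

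Genes outside the 42 were taken from further lists of lysosomal hydrolases, membrane proteins and pump subunits. Lists of enzyme sorting, cathepsin inhibitors, mTORC1 docking and TFEB control, and autophagy were pooled with them, so not all of these genes are lysosomal. Of 168 tested, 7 rose and 3 fell, which is 5.95% against 3.91% of all tested genes. Of the 109 tested genes that the deposited table assigns to the lysosome pathway of KEGG, 35 of them among the 42, 4 rose and 3 fell (6.42%). Among 39 further hydrolases and activators, 2 rose and 2 fell (10.3%, against the same 3.91%). These calls, and those among the 168, include Lyz1 as higher and Lyz2 as lower. Only the Kdm6a-deficient mice carry Cre at the Lyz2 locus, so the genotypes differ there by design. Ctsk, cathepsin K, a collagen-degrading protease, was at 26.6, 28.2 and 28.3 FPKM in Kdm6a-deficient samples and 42.4 and 42.3 FPKM in wild-type samples (log2 fold change -0.60, standard error 0.07, adjusted p = 0.00517). Hgsnat, which acetylates heparan sulfate so that Naglu can act on it, was at 73.8, 79.98 and 81.4 FPKM in Kdm6a-deficient samples and 53.1 and 57.6 FPKM in wild-type samples (log2 fold change 0.50, adjusted p = 0.0165). In both genes the groups were far apart beside their spread. The lysozymes went opposite ways. Lyz2, the locus into which Cre was inserted, was at 8260.0, 9119 and 9127 FPKM in Kdm6a-deficient samples and 18563 and 19359 FPKM in wild-type samples (log2 fold change -1.10, adjusted p = 0.00722). Lyz1, a near-identical neighbour, was at 77.7, 81.6 and 83.1 FPKM in Kdm6a-deficient samples and 16.8 and 17.4 FPKM in wild-type samples (log2 fold change 2.18, adjusted p = 5.66e-05). They share sequence, so their values are uncertain where reads fit both. Left out in turn, wild-type replicate 3 ended the call of Ctsk (adjusted p = 0.0673), and Kdm6a-deficient replicate 3, wild-type replicate 1 and wild-type replicate 3 ended those of Hgsnat (0.103, 0.107 and 0.0993) and Lyz2 (0.0759, 0.0787 and 0.154), while Lyz1 kept its call in each fit. Lyz2 also missed the threshold when low genes were kept in (adjusted p = 0.146), and its log2 fold change was -0.71 after quantile normalization, where it was called.

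Ctsk is also a marker of osteoclasts, whose resorption uses this protease and the proton pump. Of the 6 tested osteoclast markers, 3 fell, Ctsk, Mmp9 and Dcstamp, and 0 rose, against 2.18% of all tested genes lower. Atp6v0d2, on the same list, went the other way without passing (log2 fold change 0.50, adjusted p = 0.0553). The 9 listed markers summed to 204 to 231 FPKM in Kdm6a-deficient samples and 232 to 241 FPKM in wild-type samples. Acp5, the acid phosphatase of osteoclasts, overlapped between the groups, at 116, 143 and 127 FPKM in Kdm6a-deficient samples and 117 and 125 FPKM in wild-type samples. The defining marker Calcr was under 0.3 FPKM in every sample. The part of such cells in the fall of Ctsk or Atp6v0c was not tested.

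Of 28 further membrane proteins and transporters, 1 rose and 0 fell (3.57%, against 3.91% of all tested genes in either direction). It was Slc15a3, an endolysosomal carrier of histidine and peptides, at 114, 119 and 111 FPKM in Kdm6a-deficient samples and 79.0 and 83.7 FPKM in wild-type samples (log2 fold change 0.49, standard error 0.07, adjusted p = 0.0125). Of 20 genes that sort enzymes by mannose 6-phosphate or sortilin, 0 passed, with 3 at an unadjusted p under 0.05 (limma, the only tool run). Of 34 genes of autophagy and phagosome maturation, 0 passed, with 5 at an unadjusted p under 0.05. Both counts stand against 17.3% of all tested genes at that unadjusted p. Of 22 genes of mTORC1 docking and TFEB control, 1 fell and 0 rose (4.55%, against 3.91% of all tested genes in either direction). It was Bhlhe40, a repressor that binds the same CACGTG, at 11.3, 11.1 and 11.8 FPKM in Kdm6a-deficient samples and 17.8 and 17.0 FPKM in wild-type samples (log2 fold change -0.57, standard error 0.07, adjusted p = 0.00845). Both calls were lost without Kdm6a-deficient replicate 3 (adjusted p = 0.0747 for Slc15a3 and 0.0538 for Bhlhe40), wild-type replicate 1 (0.0955 and 0.0607) or wild-type replicate 3 (0.105 and 0.0749).

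Among inhibitors of cathepsins, 3 of 13 tested genes rose and 0 fell, against 1.73% of all tested genes higher and 2.18% lower. Cst7, cystatin F, which limits cathepsin C and L, was at 8.70, 10.1 and 10.3 FPKM in Kdm6a-deficient samples and 4.63 and 5.95 FPKM in wild-type samples (log2 fold change 0.77, standard error 0.12, adjusted p = 0.0161). Stfa2l1, a stefin-like gene, was at 9.08, 10.4 and 11.2 FPKM in Kdm6a-deficient samples and 5.83 and 6.10 FPKM in wild-type samples, and Serpinb6b at 3.33, 3.13 and 3.41 FPKM in Kdm6a-deficient samples and 1.17 in both wild-type samples (adjusted p = 0.0136 and 0.00208). These genes lie far below the abundant inhibitors. Cst3, cystatin C, was at 704, 803 and 689 FPKM in Kdm6a-deficient samples and 673 and 714 FPKM in wild-type samples, and Cstb, cystatin B, at 608, 736 and 616 FPKM in Kdm6a-deficient samples and 592 and 613 FPKM in wild-type samples. Both overlapped between genotypes. Stefin genes are near-identical copies of each other, so the value of Stfa2l1 is uncertain. Its call was lost without Kdm6a-deficient replicate 3, wild-type replicate 1 or wild-type replicate 3 (adjusted p = 0.0742, 0.0647 and 0.0859), and that of Cst7 without Kdm6a-deficient replicate 3 or wild-type replicate 1 (0.0925 and 0.0674).

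Markers of other blood cells also differed, and their part in the calls of these inhibitors was not tested. Of all tested genes, 3.91% passed the threshold in either direction. The 10 neutrophil markers summed to 2052 to 2627 FPKM in Kdm6a-deficient samples and 2042 to 2160.4 FPKM in wild-type samples, and Ctsg was the only called gene of the list (log2 fold change 0.62, adjusted p = 0.0394). The 5 monocyte markers summed to 71.1 to 79.0 FPKM in Kdm6a-deficient samples and 58.7 to 64.1 FPKM in wild-type samples, with Ly6c2 (0.45, adjusted p = 0.0353) and Plac8 (0.50, adjusted p = 0.0389) higher and Cx3cr1 (-0.77, adjusted p = 0.00878) lower. The 5 dendritic cell markers summed to 2.06 to 3.35 FPKM in Kdm6a-deficient samples and 0.680 to 0.911 FPKM in wild-type samples, with Ccr7 higher (1.27, adjusted p = 0.0132) and the defining marker Xcr1 listed at 0 in every sample. Ccr7 averaged 2.11 FPKM in Kdm6a-deficient and 0.270 FPKM in wild-type samples, while Flt3, Zbtb46 and Siglech overlapped between genotypes. The 6 T or NK cell markers summed to 5.57 to 6.31 FPKM in Kdm6a-deficient samples and 2.89 to 2.91 FPKM in wild-type samples, with Cd4 higher (0.89, adjusted p = 0.0028). Cd4 made up most of this sum, at a mean of 4.42 FPKM in Kdm6a-deficient and 1.93 FPKM in wild-type samples. The defining markers Cd3e and Cd3d reached at most 0.12 and 0.14 FPKM in any sample, and Nkg7 and Ncr1 overlapped between genotypes. Cd8a was higher without overlap, at means of 0.086 FPKM in Kdm6a-deficient and 0.0077 FPKM in wild-type samples.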

How the data were processed

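The RNA-seq table covers 3 Kdm6a-deficient and 2 wild-type samples of LPS-treated BMDMs, grouped by the genotype and replicate number in the labels. The deposited values are FPKM per gene, and the paper's methods name TopHat and Cufflinks for the authors' expression analysis without saying which step gave these values. The submitters' processing notes list mm8 and mm9 as mouse builds, and Bowtie 0.12.2, without a role. Other versions, and the use of strand in counting, are not given in those sources, and 10 of the 42 genes overlap a protein-coding gene on the opposite strand. The deposited signal column that was used, an overall mean of normalised gene counts, was made by the authors in DESeq and may include a wild-type sample not analysed here. The authors' fold changes, p-values and means per genotype were not used. Unmatched columns numbered 0.

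The test was limma-trend on log2(FPKM + 1), for genes that reached 1 FPKM in 2 samples or more, without a block, with Benjamini-Hochberg adjustment over all 10893 tested genes and a threshold of 0.05. On this scale the fold changes of low genes are understated. The design foresaw counts or, failing those, FPKM. The 42 genes, the further lists and the markers were chosen with earlier results of these data known, so no list is tested. All 42 genes are named. Of each further list the called genes are named, at most 4, and cell type markers only where a result touches them. Cst3, Cstb, Tmppe and Atp6v0d2 were named after their values were seen. Promoters and gene spans come from RefSeq (GRCm38.p6) and GENCODE (GRCm38), and 37 of 42 genes matched a promoter by GeneID. Alternatives were a pseudocount of 0.1 FPKM, other filters and scalings, the replicate block, each sample left out, and, added after the data were seen, removal of a trend with GC content or transcript length. The fit was tested on simulated data with independent noise of equal spread for all genes. Those data lack the deviations among replicates that genes share here, so that run does not show how the fit handles them. The software was limma 3.58.1 in R 4.3.3, with pandas 2.3.3 and matplotlib 3.10.9 in Python 3.11.15 for sequences and plots.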

Additional observations from a re-analysis of the deposited data

How the results depend on the processing

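The fall of Glb1 and Atp6v0c kept its direction under every alternative run, with log2 fold changes from -0.59 to -0.50 and from -0.68 to -0.50. With no filter on low values, or a filter on all 5 samples, 1 of the 42 genes was lower. Quantile normalization made 1 higher (Ctsz), with a median of 0.025, and turned Hexa to -0.0125, Scarb2 to -0.0127 and Atp6v1a to -0.0470. Scaling by the upper quartile turned Scarb2 to -0.0030 and Atp6v1a to -0.0243 and moved the summed membrane proteins to a ratio of 0.944. Removing a trend with GC content, added after the data were seen, gave 354 genes higher and 422 lower, 4 of the 42 higher, 13 and 5 on the further lists, and turned Ctss to 0.0129, Gm2a to 0.0218 and Atp6v1h to -0.00087. Removing a trend with transcript length, also added later, gave 342 and 438 genes, 4 of the 42 higher, 11 and 5 on the further lists, and turned Ids to 0.0215 and Gm2a to 0.0142. The cause of these shifts was not tested.

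Whether the replicate numbers pair the samples is not known. Deviations from the group means correlated at 0.432 between the replicates numbered 1 and at -0.144 between those numbered 3. The deviations of the 2 wild-type samples mirror each other, so these values are not separate checks and cannot decide it. With the replicate block, which drops Kdm6a-deficient replicate 2 from the contrast, 436 genes were higher and 560 lower, 5 of the 42 higher (Ctsz, Lipa, Acp2, Atp6v1b2 and Gpnmb), 12 and 6 on the further lists, and the median of the 42 was 0.026. The block turned Ctsd to -0.0053, Ids to 0.17, Asah1 to 0.0156, Lamp2 to 0.0263, Tfe3 to -0.0017 and Grn to -0.0040.

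With each sample left out, calls over all genes ran from 46 to 281 higher and from 35 to 397 lower, of the 42 genes from 0 to 2 higher and from 0 to 3 lower, and on the further lists from 2 to 10 higher and from 0 to 4 lower. The median of the 42 ran from 0.0080 to 0.086. Ratios of summed levels ran from 1.03 to 1.08 for proteases, 0.9498 to 1.02 for glycosidases and 1.04 to 1.11 for lipid hydrolases, phosphatase and activators. They ran from 0.9544 to 0.968 for membrane proteins, 0.856 to 0.912 for the proton pump, 1.04 to 1.08 for MiT/TFE factors and 1.07 to 1.14 for Grn and Gpnmb. Log2 fold changes that changed sign ran from -0.0293 to 0.0212 for Ctss, -0.0347 to 0.0231 for Gusb, -0.0804 to 0.0205 for Smpd1, -0.0510 to 0.0861 for Atp6v1a, -0.0472 to 0.00953 for Atp6ap1, -0.00532 to 0.0847 for Ctsd, -0.115 to 0.1697 for Ids, -0.122 to 0.0156 for Asah1, -0.167 to 0.0263 for Lamp2, -0.00436 to 0.0926 for Tfe3, -0.00398 to 0.118 for Grn, -0.0234 to 0.0231 for Gm2a, -0.0205 to 0.124 for Hexa, -0.00944 to 0.190 for Naglu and -0.00681 to 0.0510 for Scarb2. FPKM hold no depth, so counting error could not be separated from the spread between samples.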
